A study of Homo sapiens with 2 samples.

Results

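NOP56 is a core protein of the box C/D small nucleolar ribonucleoprotein (snoRNP), and its gene also carries small nucleolar RNAs (snoRNAs) within its own span. The members described here are the intervals that a deposited peak list gives under the NCBI gene number of NOP56 and whose midpoint lies in the NOP56 span, with identical intervals counted once. They are 4 of the 1406 distinct intervals in the list. The gene was chosen by its number of intervals in this list, so that number and the heights are a description and were not tested.

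The list came from HITS-CLIP, in which ultraviolet light crosslinks RNA to protein, an antibody recovers the protein, and the attached RNA is sequenced as short tags. The antibody was directed against SF3B1, the large subunit of the SF3b complex, which holds the branch point of introns within the U2 snRNP. The extract protocol names SNRBP2 instead, a difference that the labels do not settle. The 2 libraries were biological duplicates of 1 group, untreated as far as the labels say, from MDA-231-LM2, a lung-metastatic derivative of the breast cancer line MDA-MB-231, and no control or input library was used here. The authors pooled both libraries before they called peaks, so no value below has a replicate error, and the number of tags per library is not given in the sources used here. Of 6 genes fixed as markers of this line, VIM and KRT7 held an interval and CD44, KRT8, KRT18 and KRT19 did not, and of 6 markers of other cell types 0 did. With 5.27% of all protein-coding genes holding an interval, so few markers do not test the label. With no transcript level at hand, binding and transcript abundance cannot be told apart in any count.

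Box C/D snoRNAs guide ribose methylation of ribosomal RNA and other RNAs. Each works in a particle with FBL (fibrillarin), the methyltransferase, the related scaffold proteins NOP56 and NOP58, and SNU13, which binds the kink-turn of the RNA. H/ACA box snoRNAs guide pseudouridylation in a separate particle built on dyskerin, the product of DKC1. In vertebrates most snoRNAs lie in introns of host genes and are released after the host transcript has been spliced, and many of the hosts encode parts of the ribosome or of the nucleolus.

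NOP56 held 1 interval inside a nested snoRNA and 3 outside, and the tallest of the 4 was outside. The gene spans 5762 nt on the plus strand of chromosome 20, from 2652632 to 2658393 (hg38, as for all positions), and all 4 intervals lay on that strand. The height of an interval counts the pooled tags over its summit. The first interval, chr20:2654212-2654254, had 16 tags and lay in SNORD110, a C/D box snoRNA. The second, chr20:2654879-2654925, had 15 tags. The third, chr20:2655888-2655928, had 14 tags. These first 3 intervals were of nearly the same height. The fourth, chr20:2657872-2657920, had 33 tags, which was 2.06 times the next and 42.3% of the 78 tags summed over the 4 tops. The interval in SNORD110 made up 20.5% of that sum. All 4 stood above the upper quartile of the list, which was 11 tags around a median of 7. The lowest was taller than 84.1% of the distinct intervals in the list and the tallest was taller than 96.2%. Widths ran from 41 to 49 nt, close to the median of 43 nt in the list.

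**Figure D1:**
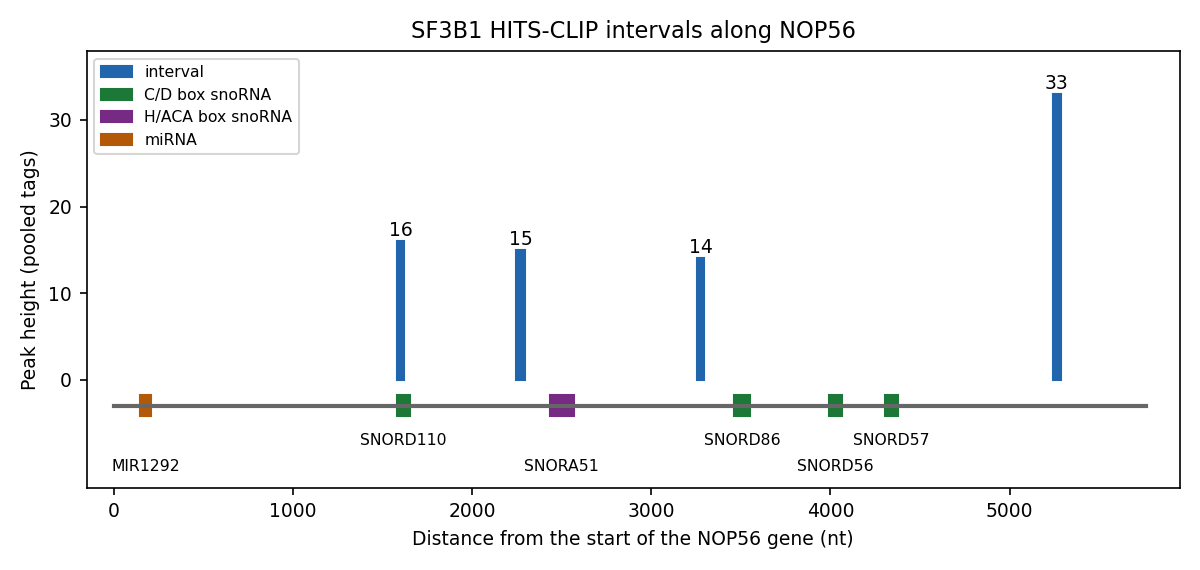
Peak height in pooled tags (vertical axis) of the 4 intervals along NOP56 (horizontal axis, nt from the start of the gene), with nested snoRNAs and MIR1292 drawn as boxes on the gene line. The interval of 16 tags sits on SNORD110, those of 15 and 14 tags stand shortly before SNORA51 and SNORD86, and the tallest, of 33 tags, stands beyond the last snoRNA.

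The first 1580 nt of the gene held 0 intervals, and the 4 were spread over the rest. Their midpoints lay at 27.8%, 39.4%, 56.9% and 91.4% of the span, and 624, 962 and 1943 nt separated neighbours. The second interval ended 141 nt before SNORA51, an H/ACA box snoRNA. The third ended 168 nt before SNORD86, a C/D box snoRNA. The fourth began 861 nt after SNORD57, the last nested snoRNA, and ended 473 nt before the end of the gene. The gene table gives spans without exons, so whether intervals 2 to 4 lie in exons, introns or an untranslated region was not analysed here.

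NOP56 held 5 snoRNA genes, and 1 of them, SNORD110, carried an interval. These 5 genes covered 436 nt, 7.57% of the span. The C/D box genes SNORD86, SNORD56 and SNORD57 and the H/ACA box gene SNORA51 held 0 intervals. MIR1292, a microRNA gene that begins 145 nt into NOP56, also held 0, and its nearest interval was 1370 nt away. Over all RefSeq genes, 36 of 357 C/D box genes (10.1%) and 1 of 182 H/ACA box genes (0.549%) held an interval. Among those nested in a protein-coding gene the numbers were 28 of 172 C/D box genes (16.3%) and 0 of 144 H/ACA box genes. Here an interval was counted by position, whether or not it was listed under the number of the host. Of the 4 C/D box genes of NOP56, 1 held an interval, which at this number cannot be set apart from those shares.

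The deposited list gives the tallest interval a second time, under SNORD86. That snoRNA spans 2656097 to 2656182 on chromosome 20 in the RefSeq table, 86 nt, and the interval begins 1689 nt beyond its end. By position it therefore counted as outside the snoRNAs. The list expects a height of 2.31 tags for the SNORD86 entry and of 1.55 for NOP56, so the 33 tags were 14.3 or 21.3 times the expected height. The span the authors used for SNORD86 is not given in the sources used here. Only 2 rows of the list were given under a snoRNA's own gene number, this one and 1 for SNORD3A, the U3 snoRNA. The interval inside SNORD110 was listed under NOP56 alone.

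Within SNORD110, the interval began at the first base of the snoRNA and covered 43 of its 75 nt. Among C/D box snoRNAs most intervals lay toward the 5′ end, but most began more than 3 nt inside the snoRNA. Of the 36 intervals at such genes, 7 began exactly at the first base, SNORD110 among them, and 15 began within 3 nt of it. A further 20 began more than 3 nt inside the snoRNA and 1 began more than 3 nt before it. The midpoint of 32 of the 36 was nearer to the 5′ end of the snoRNA than to its 3′ end. The direction was taken from the strand of the interval, since the gene table has none. The height at SNORD110 lay in the upper part of the group, whose median was 12 tags and whose range was 6 to 50. Intervals at 9 C/D box snoRNAs were taller, led by SNORD96A in RACK1 with 50 tags, the one at SNORD100 in RPS12 was also of 16 tags, and 25 were lower.

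**Figure D2:**
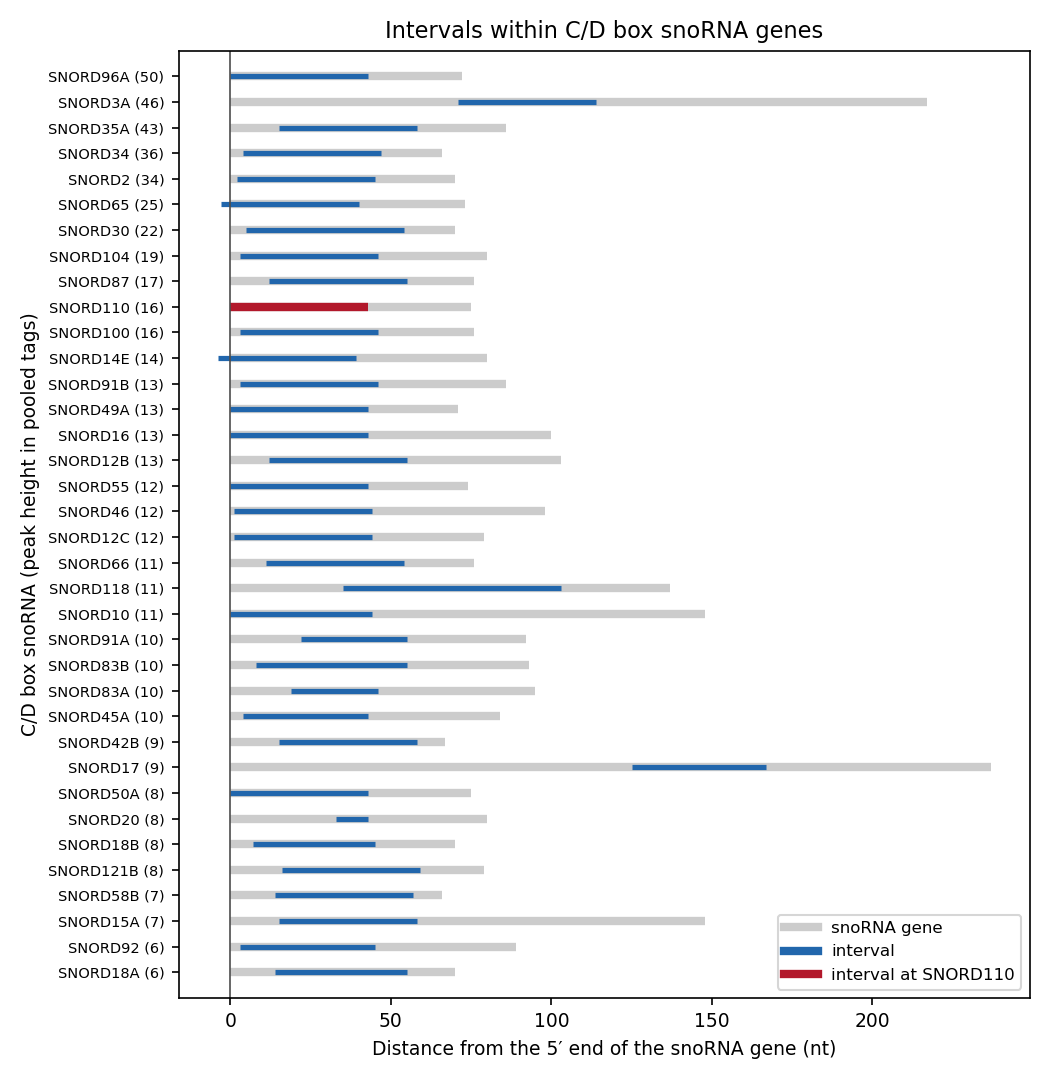
Position of the interval (coloured bar) within each of the 36 C/D box snoRNA genes that held one (grey bar), in nt from the 5′ end of the snoRNA, with the peak height in tags after each name. The interval at SNORD110, of 16 tags, begins at the first base, as do 6 others, and most bars lie toward the 5′ end.

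NOP58 and FBL, which encode the partners of NOP56 in the same particle, held 0 intervals. Neither gene number occurs in the list, and no interval overlapped either span by a single nt. NOP58, the paralogue of NOP56, spans 37899 nt on chromosome 2 (202265763 to 202303661) and holds 4 C/D box snoRNAs, SNORD70, SNORD70B, SNORD11B and SNORD11, of which 0 carried an interval. The nearest listed interval was 592002 nt away and had 5 tags. FBL, which is not a paralogue of NOP56, spans 11922 nt on chromosome 19 (39834458 to 39846379) and holds 0 annotated snoRNAs. Its nearest listed interval was 401003 nt away and had 11 tags. SNU13, the remaining core protein, held 0 as well. NOP56, the only one of the 4 core genes with an interval, was chosen by its number of intervals. Over all protein-coding genes 1057 of 20046 (5.27%) held an interval. The 0 in NOP58, FBL and SNU13 cannot be set apart from that share. The list holds called peaks only, so 0 intervals means that no peak was listed and sets no upper limit on tags in NOP58, FBL or SNU13.

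**Figure D3:**
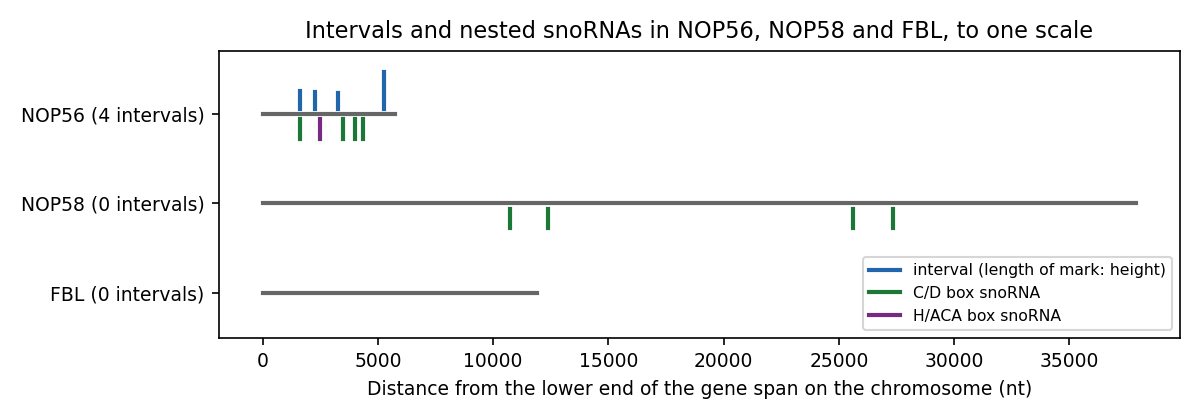
NOP56, NOP58 and FBL drawn to one scale in nt from the lower end of each span, with intervals above the gene line (mark length proportional to height) and snoRNA genes below it. NOP56, the shortest of the 3 genes, carries all 4 intervals, while the 4 snoRNAs of NOP58 carry 0.

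Genes with an expected height like that of NOP56 had tall intervals alone in the list. The list states this expected height for the genes it names. It also gives a p-value for every peak, of at most 0.0499. For NOP56 the authors' deposited p-values were 3.08e-04, 2.96e-03, 2.66e-02 and 1.00e-100 from the first interval to the fourth. The third, of 14 tags, was thus the closest to the limit. The value of 1.00e-100 is the smallest the list gives and stands in 346 of its 1587 rows. At an expected height of 1.53, HNRNPH1 intervals of 48, 57 and 62 tags had an authors' deposited p-value of 1.44e-09. The authors' p-values therefore do not rank these peaks by height. The expected height of 1.55 tags for NOP56 was exceeded in only 5 of the 1057 protein-coding genes with an interval, CCN1, RPL10A, SRSF2, MT2A and RPL13A, and the median was 0.04. In the 37 rows with an expected height of at least 1.55, no peak under 14 tags was listed, whereas 84.1% of all distinct intervals were under 14 tags. The 18 intervals listed at an expected height of 1.4 to 1.7 came from 6 genes. Among them, FTL had 1 interval of 13 tags, MT2A 1 of 14, HNRNPH1 8 of 16 to 62, RPL13A 3 of 28 to 43 and WDR74 1 of 248. Intervals in these other genes were not checked against nested small RNA genes other than snoRNAs, so they may not stem from the host transcript. The first 3 heights of NOP56 were among the lowest of the 18, and the tallest, of 33 tags, was not. Heights in NOP56 are therefore not on an equal footing with those in genes of low expected height, and how the authors set the expected height is not given in the sources used here.

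**Figure D4:**
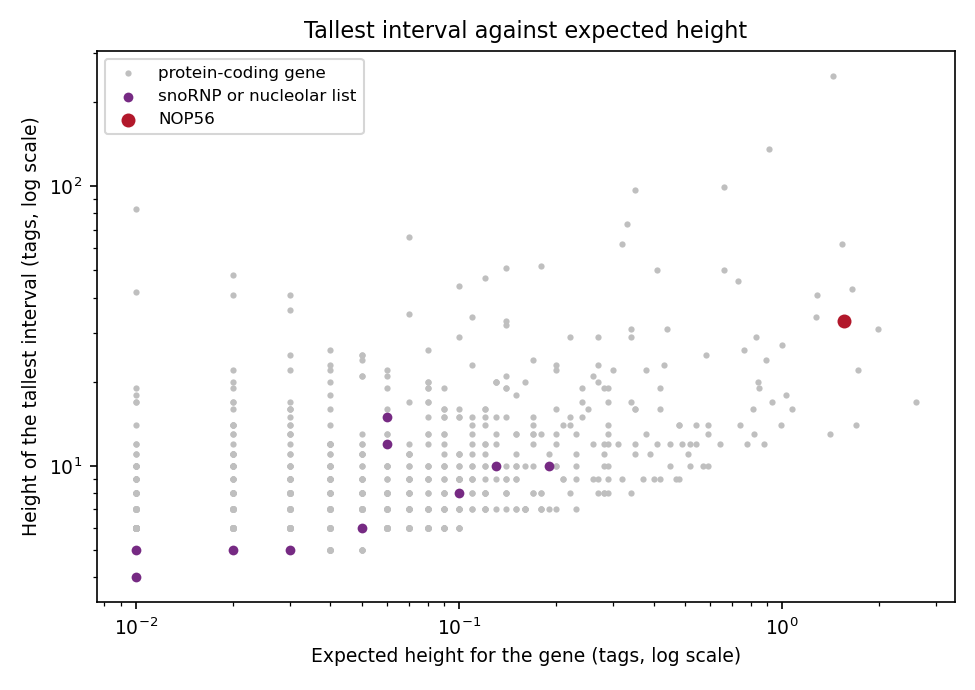
Height of the tallest interval against the expected height of the gene, in tags on log axes, for the 1012 protein-coding genes with an expected height above 0 (45 at 0 are not drawn). NOP56, at 1.55 and 33 tags, stands far to the right of the genes of the snoRNP and nucleolar lists, and the lowest tops rise from left to right.

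NOP56 held 0.69 intervals per kb of span, against a median of 0.022 over the 1057 genes with an interval. Those genes had a median span of 50880 nt, and NOP56 was chosen by its number of intervals, so the densities are not like for like. Of 3638 protein-coding genes with a span up to that of NOP56, 45 held an interval, NOP56 among them. In 12 of these 45 there were 2 or more. Genes with more intervals per kb than NOP56 were ACTB, MT2A, ACTG1, RPL10 and SRSF2. At least 4 intervals were found in 12 of the 20046 protein-coding genes (0.0599%), and in 4 of these 12 there were more than 4. The 7 other genes with exactly 4 intervals were RPL10, PKM, DNMT1, POLE, TEAD1, DIP2C and DST. The nearest to NOP56 in span was RPL10, a ribosomal protein gene of 4275 nt, with heights of 8, 10, 10 and 13 tags and an expected height of 0.23. All of its heights were below the lowest of NOP56, but at expected heights of 1.55 or more no peak under 14 tags was listed. PKM, the pyruvate kinase gene, had 13, 8, 10 and 19 tags over 32563 nt. DNMT1, the maintenance DNA methyltransferase gene, had 9, 7, 8 and 34 tags over 61608 nt. DIP2C had 48, 5, 6 and 13 tags and TEAD1 6, 25, 11 and 12. Like NOP56, these last 3 genes combined 1 tall interval with 3 lower ones, at expected heights of 0.11 for DNMT1, 0.02 for DIP2C and 0.03 for TEAD1. POLE had 8, 12, 8 and 7 tags and DST 8, 9, 9 and 6. In these and in RPL10 no interval stood far above the rest. None of the 7 had an interval in a snoRNA.

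Few host genes had an interval both inside and outside a nested snoRNA. An interval was listed for 89 of the 526 protein-coding genes that hold any annotated snoRNA gene (16.9%), beside 5.27% of all protein-coding genes. In 68 of the 89, all intervals lay outside the snoRNAs. Hosts were taken by position without regard to strand, with a median span of 78664 nt, and these shares are not matched for span. Of the 231 protein-coding genes that hold a named SNORD or SNORA gene, 59 (25.5%) had an interval and 7 (3.03%) had both kinds. In the 59, 14 had intervals inside snoRNAs alone and 38 outside alone. NOP56 had the most intervals of the 7, and RPL10 was the only other host of the 231 with 4. Among the 7 with both kinds, ordered by number of intervals and then span, those nearest to NOP56 were RPL13A, SNX5, EIF4A1, RACK1 and EIF4G1. RPL13A, a ribosomal protein gene, had 36 and 43 tags at SNORD34 and SNORD35A and 28 tags outside. SNX5, which encodes a sorting nexin, had 9 tags at SNORD17 and 14 and 97 tags outside. EIF4A1, the gene of a translation initiation helicase, had 11 tags at SNORD10 and 12 outside. RACK1, a scaffold protein of the small ribosomal subunit, had 50 tags at SNORD96A and 20 outside. EIF4G1, the gene of an initiation factor scaffold, had 11 tags at SNORD66 and 11 outside. Over the 7 hosts, the tallest outside interval was taller than the tallest inside one in 4, NOP56 among them, lower in 2 and equal in 1.

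**Figure D5:**
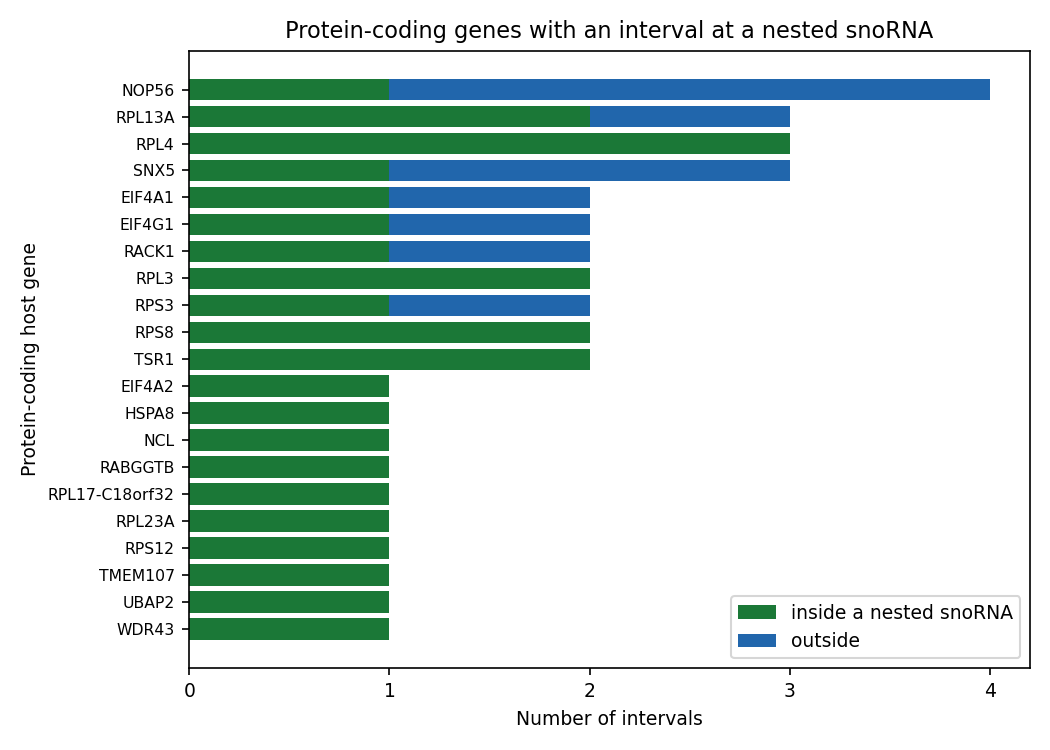
Number of intervals inside a nested snoRNA and outside, for 21 protein-coding genes. These are the genes under whose own number at least 1 interval inside a nested snoRNA was listed. NOP56 has 1 inside and 3 outside, and 14 of the 21 genes have intervals inside alone.

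Hosts with many snoRNAs differed among themselves. Only 4 protein-coding genes held 5 or more named snoRNAs. Apart from NOP56, TAF1D, which encodes a subunit of the RNA polymerase I initiation factor, held 8 snoRNAs and 2 intervals, both outside them. EIF4A2, a translation initiation helicase, held 5 snoRNAs and 1 interval, of 34 tags at SNORD2. GNL3, which encodes nucleostemin, held 5 snoRNAs and 0 intervals. Of the 61 intervals outside snoRNAs in the hosts of named snoRNAs, 9 lay within 200 nt of a snoRNA without touching it, and 2 of these 9 were the intervals of NOP56 before SNORA51 and SNORD86. The 9 came from 7 genes, with 4 before the snoRNA and 5 after it. NOP56 holds its 5 snoRNAs within 5762 nt, whereas the 231 hosts of named snoRNAs had a median span of 45181 nt. The count within 200 nt is not matched for span or number of snoRNAs, so it does not show a placement linked to snoRNAs.

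Other genes of snoRNPs and of ribosome assembly held at most 2 intervals each, though NOP56 was chosen for its number of intervals. Over all protein-coding genes, only 12 of 20046 (0.0599%) held at least 4, so a low number is not particular to these lists. Over 5 lists of such genes, 11 of 84 held an interval, and with NOP56 left out 10 of 83 (12.0%) did, beside the 5.27% of all protein-coding genes. These shares are not matched for span or transcript level and were not tested. The lists were chosen with earlier results of these data known. The median number of intervals per gene was 0 in every list and over all protein-coding genes. In the H/ACA core (DKC1, NHP2, NOP10 and GAR1) 0 of 4 genes held an interval. Among snoRNP assembly factors 1 of 12 did, RUVBL1, a helicase of the assembly complex, with 4 tags. In the list of the U3 snoRNP and small subunit processome, which cuts and folds the precursor of 18S rRNA, 5 of 38 did. These were DHX37, a helicase that acts on U3, with 2 intervals of up to 15 tags, PDCD11 with 12 tags, WDR43 with 6, and BMS1, a GTPase, and NGDN with 5 each. The interval of WDR43 lay at SNORD92. Among other nucleolar proteins 4 of 26 held an interval. NPM1, the gene of nucleophosmin, had 2 intervals of up to 10 tags, and MYBBP1A had 10 tags. NCL, the gene of nucleolin, had 8 tags, at SNORD20, and WDR12 had 5. Apart from NOP56, DHX37 was the only gene of the 5 lists with an interval as tall as the lowest in NOP56. The expected heights of these 10 genes ran from 0.01 to 0.19, against 1.55 for NOP56. At expected heights of 1.55 or more no peak under 14 tags was listed. The heights in these genes are therefore not on an equal footing with those in NOP56.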

How the data were processed

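HITS-CLIP tags of 2 libraries, pooled by the authors, gave 1 deposited peak list with 1587 rows. Tools named in the submitters' processing notes were BWA 0.7.17 and cutadapt 2.3, with the hg38 build; the peak caller and annotation were not stated in these sources. By its name, the file rests on unique tags (in a sense not stated), significant peaks and intervals cut at a set part of the peak height. The deposited signal is the peak height in pooled tags, with no normalization, and served only to describe and rank intervals.

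Gene numbers were matched to the RefSeq table of GRCh38.p14 (1190 of 1191 matched). Duplicate rows were collapsed, and an interval belonged to a gene if its number was listed and its midpoint lay in the span. An interval belonged to a snoRNA if its midpoint lay in it. Protein-coding genes on the main chromosomes (20046) were the background. No statistical comparison was run, since 1 pooled list has no replicates; depth per library is unknown, so no confidence interval is given. The code that assigns intervals was run on simulated data placed in the RefSeq table. It recovered the planted number in 200 of 200 genes and 100 of 100 planted snoRNAs. The simulated intervals were planted by the same rule, so this checks the code and not whether the rule is right. Sequences of intervals were not used here.

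Members and gene lists were chosen with earlier results of these data known. Named genes were NOP56, NOP58, FBL and their snoRNAs, the 5 tallest members of each list, the 5 hosts nearest to NOP56 among those with intervals inside and outside a snoRNA, and 3 genes with as many intervals and the nearest span; any further name was picked with its value in view. Python 3.11.15, numpy 2.4.6, pandas 2.3.3 and matplotlib 3.10.9 were used.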

Additional observations from a re-analysis of the deposited data

How the results depend on the processing

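The 4 intervals of NOP56, the 1 in SNORD110 and the 0 in NOP58 and FBL were the same among intervals above the median height, with any overlap of 1 nt, and with intervals within 50 nt merged. The numbers for the 3 genes were also the same by gene number as listed and by midpoint alone. Among intervals above the median height, 485 protein-coding genes held an interval against 1057, 53 snoRNA host genes against 89, and 6 genes of the 5 lists against 11, as fewer intervals enter. The 89 of 526 hosts (16.9%) include hosts of any annotated snoRNA gene; with named SNORD and SNORA genes alone, as used in the text and chosen after seeing the data, there were 59. The tallest NOP56 interval was 33 tags also outside snoRNAs, or 21.3 times its expected height. Libraries could not be left out, since the list is pooled. No paired analysis was possible because there is 1 group and 1 pooled list. How tags from snoRNAs with near-identical copies were placed is not stated.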
